A study of Mus musculus with 14 samples.

Results

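The genes described are the ligands and receptors of the tumor necrosis factor (TNF) superfamilies in the spleen and ovary of mice lacking ZFP36L2. They were chosen by name, as every gene listed in either tissue comparison whose symbol starts with *Tnfsf* or *Tnfrsf*, together with *Cd40*, *Fas*, *Lta*, *Ltb* and *Ltbr*, and without the receptors *Tnfrsf13b*, *Tnfrsf13c* and *Tnfrsf17*. This gave 33 of the 20139 genes listed for either tissue, of which 33 were listed for spleen and 29 for ovary. By role they were 12 ligands, 5 receptors with a death domain, 11 receptors that bind TRAF adaptors, 4 decoy or truncated receptors and 1 antisense transcript, *Tnfsf13os*. Poly(A) RNA was sequenced from 4 wild-type and 4 L2-fKO spleens and from 3 wild-type and 3 L2-fKO ovaries. L2-fKO mice (L2-cKO in the labels) were *Zfp36l2*-/-;CMV-Cre, with both copies of the loxP-flanked gene recombined by Cre under the CMV promoter, which the study describes as active in all tissues from early embryogenesis, and the wild-type littermates carried 2 intact *Zfp36l2* copies and the same CMV-Cre transgene, from B6.CTg(CMV-Cre)1Cgn/J mice. The labels name no treatment and no age. The study describes L2-fKO mice as dying as pups, the spleens as those of pups within 10 days of birth in 4 pairs matched for age, and the ovaries as age-matched, and which animals formed a pair is not given in the sources used here. The spleens came from 2 female and 2 male wild-type mice and from 1 female and 3 male L2-fKO mice, and L2-fKO spleen 3 and L2-fKO ovary 1 were from the same animal. The labels name the spleen source as spleen organoid.

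The ligands of this superfamily are mostly trimers held on the cell surface, from which some are shed. Their receptors carry cysteine-rich repeats outside the cell, and inside it either a death domain, which can lead to apoptosis or inflammatory signaling, or motifs that bind TRAF adaptors and activate NF-κB. In the spleen, lymphotoxin made by lymphocytes acts on the lymphotoxin β receptor of stromal cells to organize the white pulp. ZFP36L2 is a zinc finger protein that binds AU-rich elements in 3′ untranslated regions (3′UTRs) and promotes decay of the bound mRNA.

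*Zfp36l2* reads fell to 5.91% of the wild-type mean in L2-fKO spleen and to 19.1% in L2-fKO ovary, counted over the whole gene, of which 1 exon was deleted. The counts summed to 39138010 to 45167464 per spleen library, and 31052510 to 44270070 reads per ovary library were recovered from the deposited values. Summed B cell and oocyte markers, which define spleen and ovary, were 31235 to 141301 normalized reads in every spleen and 118716 to 135339 in every ovary. In L2-fKO spleen, 11 of 11 megakaryocyte and platelet markers and 10 of 11 neutrophil markers fell. So did 5 of 6 tested markers of pancreatic acinar cells, a tissue next to the spleen, whose summed level was 26245, 7985, 1646 and 22751 normalized reads in wild-type spleens 1 to 4 and 1265 to 2196 in L2-fKO spleens. On the second principal component (20.4% of the variance), wild-type spleen 3 (-0.365) and L2-fKO spleen 3 (-0.449) lay at one end. At the other end lay wild-type spleen 1 (0.424) and L2-fKO spleen 4 (0.672), which had the highest summed B cell markers of their groups, 141301 and 123265 normalized reads. The members followed these libraries: L2-fKO spleen 4 was the highest L2-fKO library for 25 of 32 members tested (43.1% of all genes tested), and wild-type spleen 1 the highest wild-type library for 21 of 32 (28.5%). L2-fKO spleen 3 was the lowest of its group for 20 of 32 members (37.1% of all genes), and wild-type spleen 3 for 21 of 32 (31.3%). In such bulk tissue, fewer cells of a type and less RNA per cell cannot be told apart.

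The AU-rich element was looked for in the members as the motif UAUUUAU, which contains AUUUA, on the transcribed strand of the longest 3′UTR that GENCODE M21 (GRCm38) annotates for a protein-coding transcript. Of 31 members tested in spleen that have such a 3′UTR, 14 (45.2%) held UAUUUAU, against 4212 of 14192 (29.7%) of all genes tested in spleen. AUUUA was held by 21 of 31 members (67.7%) and by 69.3% of all genes. Among members tested in ovary, 11 of 28 (39.3%) held UAUUUAU, against 29.3% of all genes tested there. The sites below are shown because they lie in the 3 members with the motif that passed the adjusted p in spleen or ovary, *Tnfsf14*, *Ltbr* and *Tnfsf10*, and in *Tnfsf11*, whose spleen libraries did not overlap between the groups. Capitals mark the UAUUUAU of the named site, and each stretch is read 5′ to 3′ on the RNA from GRCm38. The stretches of *Tnfsf10* sites 2 and 3 overlap, so each also holds the motif of the other in small letters.
Tnfsf14 3′UTR, chr17:57190252-57190280, minus strand: ucaagcuggggUAUUUAUgcuucugaugc
Ltbr 3′UTR, chr6:125306604-125306632, minus strand: aacgacaagugUAUUUAUgaguuguaauc
Tnfsf10 3′UTR, site 1, chr3:27335951-27335979, plus strand: caguuucuaaaUAUUUAUgcaacaauuga
Tnfsf10 3′UTR, site 2, chr3:27339343-27339371, plus strand: auuguuuuaccUAUUUAUcauauuuauca
Tnfsf10 3′UTR, site 3, chr3:27339352-27339380, plus strand: ccuauuuaucaUAUUUAUcacuuucauua
Tnfsf11 3′UTR, chr14:78277646-78277674, minus strand: ucugucaggagUAUUUAUgcaauuauuga

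The *Tnfsf14* site starts at base 242 of a 3′UTR of 1019 bases and the *Ltbr* site at base 609 of 659. The 3 *Tnfsf10* sites start at bases 295, 3687 and 3696 of 3998. This gene has 2 such transcripts, and the shorter of their 3′UTRs, of 216 bases, holds no UAUUUAU. The other called members had no UAUUUAU: the 3′UTR of *Tnfrsf21* (1217 bases) held AUUUA in 2 places and that of *Tnfrsf1a* (490 bases) in none. The ligands *Lta*, *Tnfsf8* and *Tnfsf10* and the receptor *Tnfrsf10b* held the most matches, 3 each. A match is a run of letters and not a measured binding site.

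**Figure D1:**
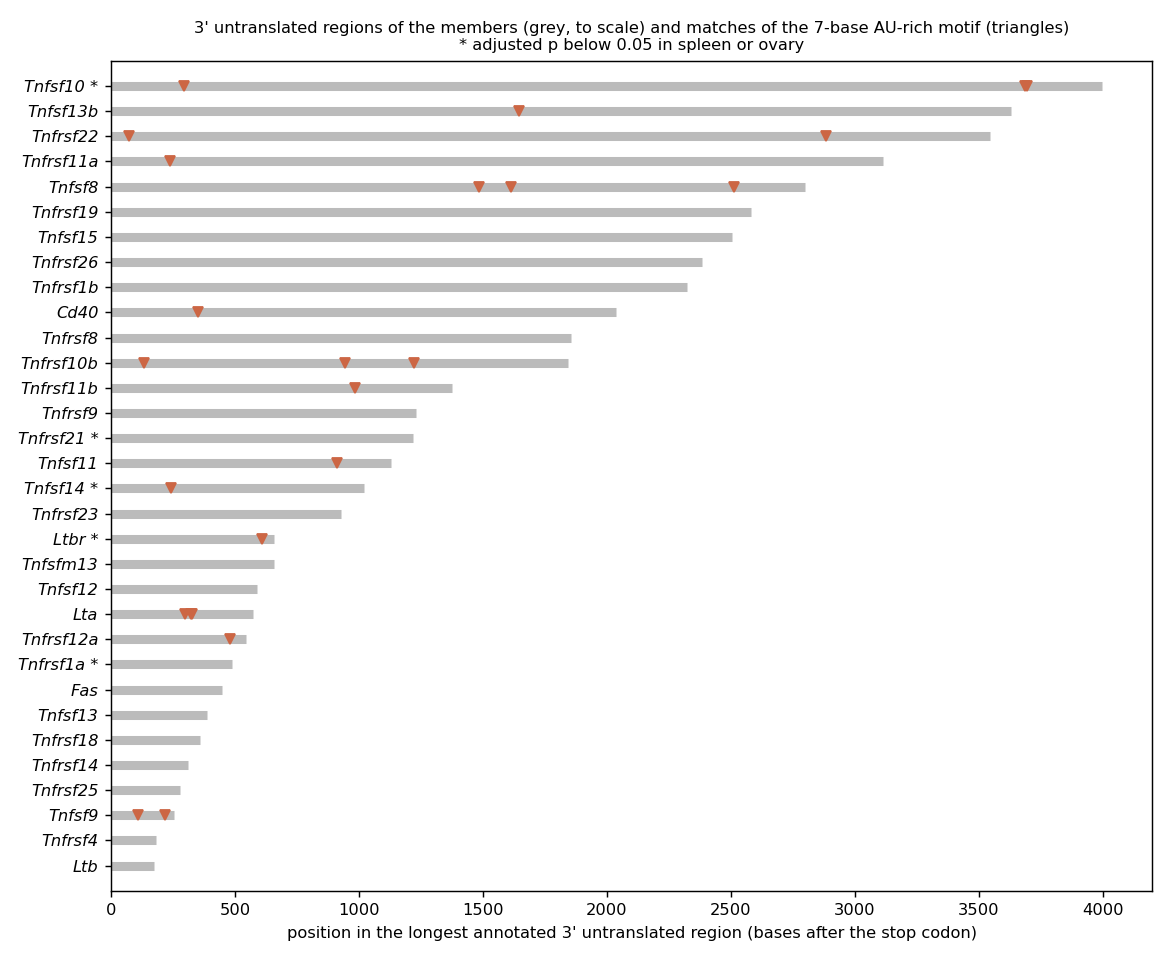
Each grey bar is the longest annotated 3′UTR of a member, to scale in bases after the stop codon, and each triangle is a match of the 7-base AU-rich motif. Among the members marked with an asterisk, *Tnfsf14* and *Ltbr* have 1 match and *Tnfsf10* has 3, and the bars of *Tnfrsf21* and *Tnfrsf1a* carry none.

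Which members each organ contains was read from the wild-type libraries, as normalized reads per kilobase of merged exon. This level is a rough comparison between genes, as merged exons include those of every annotated transcript. It is uncertain for *Tnfsf12*, *Tnfsf13* and *Tnfsfm13*, as *Tnfsfm13* shares exons with the others on the same strand. In wild-type spleen the highest level was that of *Ltb*, the membrane-anchoring subunit of surface lymphotoxin, at 2726 ± 1287 (SD, n = 4). It was followed by *Tnfrsf14*, the receptor HVEM, at 2352 ± 712. The ranges of these 2 genes overlapped, and every library was above every library of the next gene, *Tnfrsf1a*, the main TNF receptor of most cells, at 915 ± 77.0. *Tnfrsf21*, a death domain receptor also called DR6, stood at 686 ± 128, *Tnfrsf1b*, the second TNF receptor, at 478 ± 40.4 and *Ltbr*, the lymphotoxin β receptor, at 432 ± 15.9. The lowest level was that of *Tnfsf15*, the ligand of *Tnfrsf25*, at 2.57 ± 0.814. Of the 32 pairs of neighbors in this order, 28 overlapped in their wild-type ranges.

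Wild-type ovary led with other members, on the same per-kilobase scale in a table that was normalized separately, so that levels are compared within each tissue. *Tnfrsf1a* was highest at 1479 ± 36.2 (SD, n = 3) and lay above *Ltbr* at 975 ± 42.8 in every library. *Tnfrsf19*, the receptor TROY, reached 925 ± 163, rank 3 of 29 in ovary and rank 24 of 33 in spleen. *Tnfsf12*, the ligand TWEAK, followed at 277 ± 13.99 and *Tnfrsf1b* at 243 ± 29.6. *Ltb*, rank 1 in spleen, was rank 24 in ovary at 12.8 ± 3.51, and the ovary table does not list *Lta*, *Tnfrsf9*, *Tnfsf14* or *Tnfsf8*. Of the 28 pairs of neighbors in the ovary order, 24 overlapped in their ranges.

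**Figure D2:**
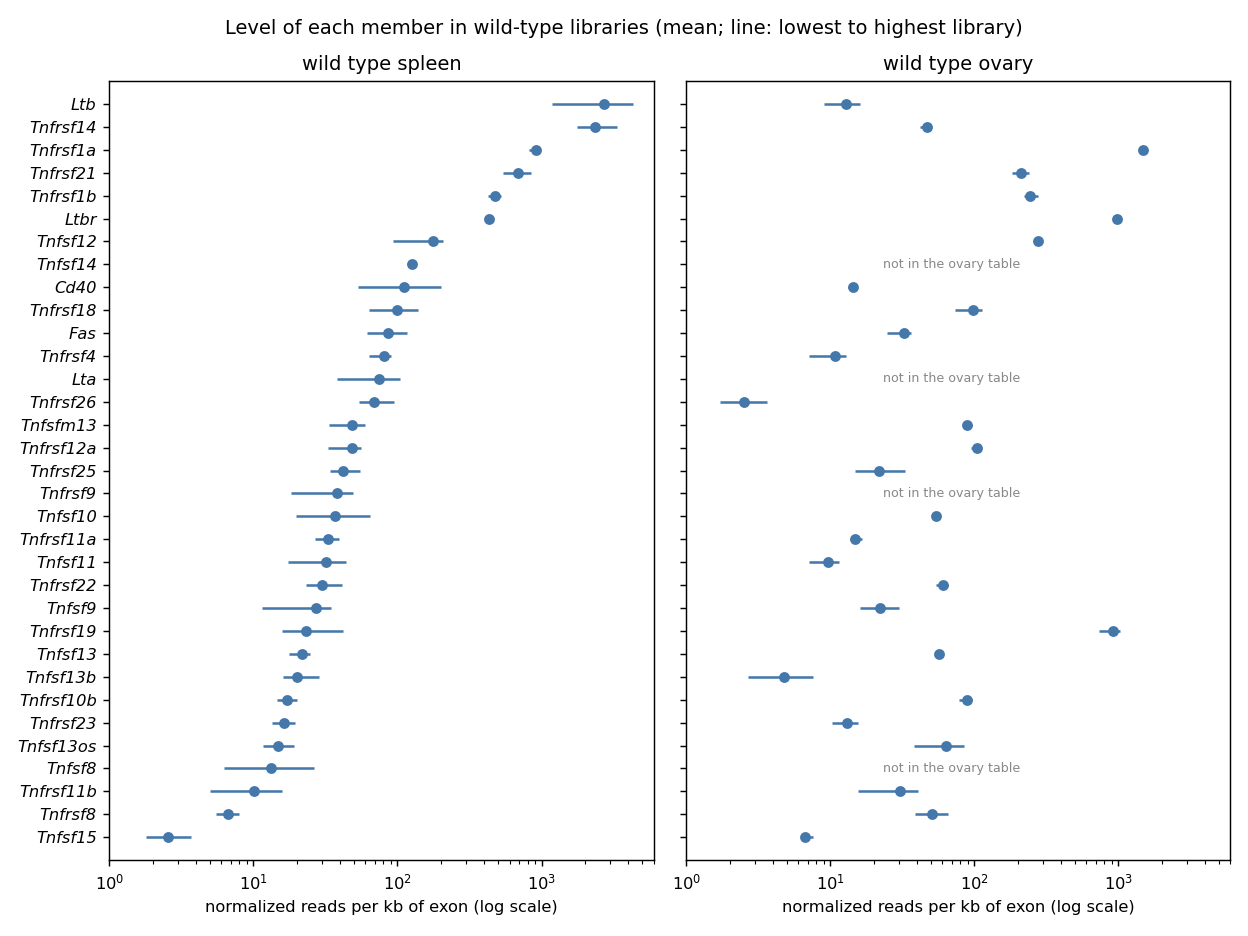
Normalized reads per kilobase of exon (log scale) of each member in wild-type spleen (n = 4) and wild-type ovary (n = 3), with the mean as a point and the lowest to highest library as a line. *Ltb* and *Tnfrsf14* stand highest in spleen, whereas *Tnfrsf1a*, *Ltbr* and *Tnfrsf19* stand highest in ovary.

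The first comparison asked which members changed in spleen without ZFP36L2. One ligand fell and 3 receptors rose: *Tnfsf14* fell 4.72-fold, *Tnfrsf21* rose 2.57-fold, *Ltbr* rose 1.56-fold and *Tnfrsf1a* rose 1.44-fold in L2-fKO. Of 32 members tested, 1 was higher and 1 lower past both limits, 0.05 for the adjusted p and 1 for the log2 fold change in either direction (edgeR's quasi-likelihood test, Benjamini-Hochberg adjustment over 16911 genes), where 2.90% of all genes tested were higher and 3.11% lower. With the adjusted p as the only limit, 3 members were higher and 1 lower, against 6.89% and 6.51% of all genes, together 4 of 32 members and 13.4% of all genes. The DESeq2 Wald test gave 5 members higher and 1 lower at that limit, against 9.96% and 9.50% of all genes. The median log2 fold change was -0.02 over the 32 members and -0.02 over all genes tested. *Tnfsf15* had too few counts to be tested in spleen, with 83 in all 8 libraries.

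*Tnfsf14* encodes LIGHT, a ligand of both *Tnfrsf14* and *Ltbr*. Its normalized count was 235.8, 244.5, 213.7 and 240.5 in wild-type spleens 1 to 4 and 61.6, 53.2, 32.6 and 50.3 in L2-fKO spleens 1 to 4. All L2-fKO libraries lay far below the lowest wild-type library, and the groups did not overlap. The log2 fold change was -2.24 (SE 0.21, 95% confidence interval -2.71 to -1.76, edgeR adjusted p = 0.000239), and an exact two-sided permutation test over the 8 libraries gave p = 0.0286, the smallest that 4 against 4 allow. It ranked 8 of the 33 members by level in wild-type spleen, at 126 ± 7.45 normalized reads per kilobase. The blood cell markers that were wholly lower beside it, summed over each whole list in normalized reads, were those of megakaryocytes and platelets, at 31914 to 62200 in wild-type and 1615 to 2160.0 in L2-fKO spleen, and those of neutrophils, at 166906 to 270436 and 10928 to 61667. None of these markers was at 0 in every library. T cell markers summed to 6248 to 16332 and 7338 to 15942, with 1 of 12 genes, *Lat*, lower. NK and innate lymphoid cell markers summed to 3369 to 6193 and 3288 to 5762, with 1 of 10 genes lower. Dendritic cell markers summed to 3739 to 6125 and 3401 to 5999, with 1 of 9 genes lower and 1 higher. The part of any of these cells in the fall of *Tnfsf14* was not tested.

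*Tnfrsf21*, the DR6 death domain receptor, had 3456, 2608, 2982 and 2228 normalized reads in the wild-type spleens. The L2-fKO spleens had 7214, 6740.2, 9262 and 5722. Every L2-fKO library exceeded every wild-type library, and L2-fKO spleen 3 was highest, the opposite of most members. The log2 fold change was 1.36 (SE 0.18, 95% confidence interval 0.96 to 1.76, edgeR adjusted p = 0.00131, exact permutation p = 0.0286). Without wild-type spleen 1 and L2-fKO spleen 4 it was 1.57.

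*Ltbr*, the receptor through which lymphotoxin and LIGHT act on stromal cells, had 1019, 1054, 1031 and 965 normalized reads in wild-type spleens. In L2-fKO spleens it had 1490, 1583, 1318 and 1944. The wild-type values were close together and all below the lowest L2-fKO library. The log2 fold change was 0.64 (SE 0.13, 95% confidence interval 0.35 to 0.92, edgeR adjusted p = 0.0112), below the fold limit. *Tnfrsf1a*, which carries the death domain that recruits TRADD, had 2543, 2528, 2134 and 2276 normalized reads in wild-type spleens and 3155, 3293, 3026 and 4165 in L2-fKO spleens. Again the groups did not overlap, with L2-fKO spleen 4 highest, and the log2 fold change was 0.52 (SE 0.12, 95% confidence interval 0.25 to 0.80, edgeR adjusted p = 0.0223). This call was the least stable of the 4. The adjusted p was 0.0523 without wild-type spleen 2, 0.0794 without wild-type spleen 4, 0.0568 without L2-fKO spleen 2 and 0.0558 among male libraries only, where the log2 fold change was 0.50 to 0.56. Over all alternatives the adjusted p was 0.00178 to 0.0794.

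Stromal, endothelial, macrophage, mast cell, erythroid and granulosa marker lists, with genes counted at the adjusted p, are given beside these receptors. Of all genes tested 6.89% were higher and 6.51% lower at that limit. Summed stromal markers were 39151 to 44515 normalized reads in wild-type and 48966 to 61767 in L2-fKO spleen, with 3 of 11 tested genes higher (*Pdgfra*, *Pdgfrb* and *Lum*) and *Ccl21a* at 0 in every library. Summed endothelial markers were 23079 to 29169 and 30348 to 45483, with 2 of 9 genes higher. Summed macrophage markers were 51811 to 88520.1 and 83480 to 150528, with 2 of 12 genes higher, and their ranges overlapped. Summed mast cell and basophil markers were 4392 to 5765 in wild-type spleens and 8585, 10917, 3483 and 16611 in L2-fKO spleens 1 to 4, with 5 of 9 genes higher (*Cma1*, *Tpsb2*, *Tpsab1*, *Mcpt4* and *Cpa3*), 1 lower (*Kit*) and a median log2 fold change of 2.07. L2-fKO spleen 3, which was lowest of all 8 for these markers, was the highest for *Tnfrsf21* and the lowest of its group for *Ltbr* and *Tnfrsf1a*. Summed erythroid markers were 472969 to 573921 in wild-type spleens and 714659, 683889, 911934 and 441233 in L2-fKO spleens 1 to 4. The groups overlapped, with 0 of 10 tested genes higher and 0 lower. L2-fKO spleen 3 was the highest of all 8 for the erythroid sum, as for *Tnfrsf21*. The granulosa marker list summed to 3719 to 4908 in wild-type and 7655 to 9784 in L2-fKO spleen. Of its 10 genes 6 were tested and 3 were higher (*Inhbb*, *Kitl* and *Wnt4*). *Fshr* was at 0 in every library, so this sum is not read as granulosa cells in spleen. The part of any cell type in the rise of *Tnfrsf21*, *Ltbr* and *Tnfrsf1a* was not tested. In the 2 wild-type and 3 L2-fKO male spleens alone the log2 fold changes were -2.14 for *Tnfsf14*, 1.44 for *Tnfrsf21* and 0.73 for *Ltbr*, each past the adjusted p.

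**Figure D3:**
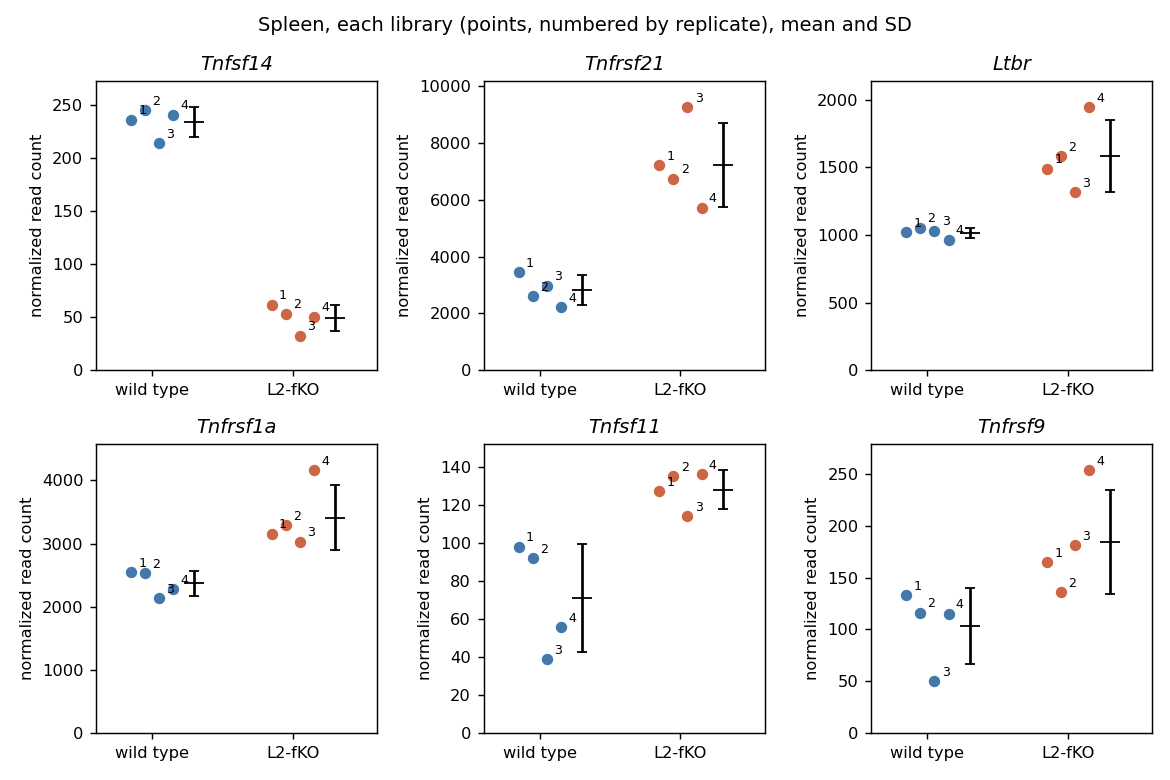
Normalized read counts of 6 members in each spleen library, numbered by replicate, with the mean and SD beside the points (n = 4 per group, axes from 0). The L2-fKO libraries of *Tnfsf14* lie between 32.6 and 61.6, below every wild-type library, and those of the other 5 genes lie above every wild-type library.

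The members whose libraries did not overlap were 5 higher and 1 lower in L2-fKO spleen, where 9.61% of all genes tested were wholly higher and 10.8% wholly lower. Besides the 4 above they were *Tnfsf11*, the osteoclast factor RANKL, and *Tnfrsf9*, the T cell costimulator CD137, which are named here after their values were seen. *Tnfsf11* had 98.1, 91.9, 38.8 and 55.6 normalized reads in wild-type spleens and 127, 135, 114 and 136 in L2-fKO spleens. Its log2 fold change of 0.85 (95% confidence interval 0.21 to 1.49) missed the limit (edgeR adjusted p = 0.0797). *Tnfrsf9* had 133, 116, 49.7 and 115 normalized reads in wild-type and 165, 136, 181 and 254 in L2-fKO spleens, with a log2 fold change of 0.83 (95% confidence interval 0.14 to 1.53, edgeR adjusted p = 0.108). Wild-type spleen 3 was the lowest library for both, with wild-type spleen 4 also low for *Tnfsf11*, and the lowest L2-fKO library was close to the highest wild-type library. The DESeq2 Wald test gave adjusted p = 0.0252 for *Tnfsf11* (range over the alternatives 0.0252 to 0.207) and 0.0469 for *Tnfrsf9* (range 0.0469 to 0.187).

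The binding partners of *Tnfsf14* and *Ltbr* were *Tnfrsf14*, *Ltb* and *Lta*. *Tnfrsf14* had 2530.2, 2702, 4774 and 3525 normalized reads in wild-type and 5033, 4465, 5658 and 3198 in L2-fKO spleens, so the groups overlapped (log2 fold change 0.44, 95% confidence interval -0.07 to 0.95, edgeR adjusted p = 0.235). *Ltb* had 6526, 4414, 1788 and 3801 in wild-type and 2206, 2074, 1523 and 4419 in L2-fKO spleens (log2 fold change -0.69, 95% confidence interval -1.59 to 0.20, edgeR adjusted p = 0.287). *Lta*, the soluble lymphotoxin subunit, which binds both TNF receptors as a homotrimer, had 143, 120.2, 52.7 and 93.0 in wild-type and 66.8, 47.6, 42.4 and 97.2 in L2-fKO spleens (log2 fold change -0.68, edgeR adjusted p = 0.237). Within its group, each lymphotoxin gene was highest in wild-type spleen 1 or L2-fKO spleen 4, and their intervals include no change as well as a fall of over 1 on the log2 scale. *Tnfrsf1b* had 2009, 1806, 1853 and 1634 normalized reads in wild-type and 1897, 1884, 1440.4 and 2977 in L2-fKO spleens, which overlapped (log2 fold change 0.17, 95% confidence interval -0.27 to 0.61, edgeR adjusted p = 0.614).

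The remaining 22 members tested in spleen overlapped between the groups and did not pass the test. Among ligands, the log2 fold changes ran from -0.43 for *Tnfsf13b*, the B cell survival factor BAFF, to 0.47 for *Tnfsf13*, its relative APRIL, with *Tnfsf9* at -0.25, *Tnfsf8* at -0.32, *Tnfsf12* at -0.02 and *Tnfsf10* at 0.04. The reads of *Tnfsf12*, *Tnfsf13* and the fusion gene *Tnfsfm13* (0.08) are uncertain, as *Tnfsfm13* shares exons with both on the same strand. The antisense *Tnfsf13os* stood at 0.67 (edgeR adjusted p = 0.170), and counting was by strand. Among receptors they ran from -0.53 for *Tnfrsf18* (GITR) to 0.41 for *Tnfrsf11a*, the receptor of RANKL. *Cd40*, through which T cells help B cells, was at -0.35, *Tnfrsf26* at -0.40, *Tnfrsf25* at -0.41, *Tnfrsf22* at -0.16, *Tnfrsf8* at -0.14, *Tnfrsf11b*, the RANKL decoy osteoprotegerin, at -0.11, *Tnfrsf4* (OX40) at -0.11 and *Fas* at -0.05. *Tnfrsf10b* was at -0.01, *Tnfrsf23* at 0.01, *Tnfrsf19* at 0.06 and *Tnfrsf12a*, the TWEAK receptor, at 0.25. *Tnfrsf22* and *Tnfrsf23* are close copies whose reads could be exchanged. By role, the median log2 fold change was -0.25 over 11 ligands, -0.01 over 5 death domain receptors, 0.17 over 11 TRAF-binding receptors and -0.14 over 4 decoy or truncated receptors.

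Many members lie side by side in the genome. In GRCm38, 19 of the 33 members formed 8 groups with gaps of at most 200000 bases. *Ltbr* (chr6:125306571-125313885, minus strand) and *Tnfrsf1a* (chr6:125349362-125362484, plus strand) are 35476 bases apart and were the one such group with 2 members past the adjusted p. *Tnfsf14* (chr17:57189492-57194177) lies 81734 bases from *Tnfsf9*, whose spleen log2 fold change was -0.25. *Tnfrsf21* (chr17:43016555-43089189) had no other member within that distance. *Tnfrsf1b* and *Tnfrsf8* are 20266 bases apart on chromosome 4, *Tnfrsf4* and *Tnfrsf18* 9551 bases, and *Ltb* and *Lta* 6844 bases on chromosome 17.

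The second comparison asked the same of the ovary. One member rose, *Tnfsf10*, the ligand TRAIL, which induces apoptosis through a death receptor. Of 29 members tested, 1 was higher past both limits (limma on log2(normalized count + 1), adjusted over 18504 genes), against 0.730% of all genes tested, and 0 were lower, against 0.227%. With the adjusted p as the only limit it was still 1 higher, against 1.23% of all genes higher and 1.58% changed in either direction. At an unadjusted p below 0.05, limma gave 5 members higher and 1 lower, together 6 of 29 against 16.8% of all genes, and at the adjusted p edgeR and DESeq2 on the recovered reads also gave 0 lower, against 0.373% and 1.65% of all genes. They gave 1 and 2 members higher, against 1.24% and 4.38% of all genes. The median log2 fold change was 0.08 over the 29 members and -0.00 over all genes.

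*Tnfsf10* had 277, 293 and 282 normalized reads in wild-type ovaries 1 to 3 and 613, 643 and 510.2 in L2-fKO ovaries 1 to 3. The wild-type libraries agreed closely, and every L2-fKO library was well above them. The log2 fold change was 1.04 (SE 0.12, 95% confidence interval 0.76 to 1.33, limma adjusted p = 0.0120), on the log2(normalized count + 1) scale, and the exact permutation p was 0.1, the smallest that 3 against 3 allow. Without wild-type ovary 1, 2 or 3 the limma adjusted p was 0.0711, 0.0737 or 0.0766, and without L2-fKO ovary 2 the log2 fold change was 0.98, below the fold limit. Over all alternatives the adjusted p was 2.26e-10 to 0.0766. In spleen *Tnfsf10* had 339, 181, 103 and 159 normalized reads in wild-type and 158, 141, 127 and 379 in L2-fKO libraries. There the groups overlapped widely, with a log2 fold change of 0.04 (95% confidence interval -0.92 to 1.01, edgeR adjusted p = 0.961).

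The receptors of TRAIL were listed in ovary too. *Tnfrsf10b*, its death receptor in the mouse, had 429.5, 511 and 525 normalized reads in wild-type and 428, 379 and 511 in L2-fKO ovaries (log2 fold change -0.16, 95% confidence interval -0.50 to 0.18). The decoys *Tnfrsf22* and *Tnfrsf23* had log2 fold changes of -0.24 and 0.26, with 195 to 276 and 40.9 to 70.9 normalized reads over the 6 libraries, and *Tnfrsf11b* one of -0.01, with 44.3 to 114. In all 4 the groups overlapped, and none passed the limma test. Summed macrophage markers were 15096 to 16935 normalized reads in wild-type and 17871 to 21379 in L2-fKO ovary, summed endothelial markers 15947 to 16934 and 19408 to 23376, and summed leukocyte markers 1225 to 1375 and 1502 to 2161. These 3 lists did not overlap between the groups. Limma gave adjusted p below 0.05 for 0 of 11 macrophage genes, 1 of 9 endothelial genes and 0 of 8 leukocyte genes, where 1.23% of all genes tested were higher. At an unadjusted p below 0.05 limma gave 8, 6 and 3 of them higher, against 16.8% of all genes in either direction. At the adjusted p DESeq2 gave 5, 4 and 2 higher, against 4.38% of all genes. Other lists were wholly lower in L2-fKO ovary. Summed granulosa markers were 103820 to 113387 normalized reads in wild-type and 60213 to 102864 in L2-fKO ovary, and pancreatic acinar markers 1693 to 1988 and 1001 to 1182. At the limma adjusted p, 0 of 10 and 0 of 9 of their genes passed. The part of any of these cells in the rise of *Tnfsf10* was not tested.

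Wholly separate groups were common in ovary. All 3 L2-fKO libraries exceeded all 3 wild-type libraries for 8 of 29 members (13.2% of all genes) and below for 1 (12.0%). The 8 were *Tnfsf10*, *Cd40*, *Ltb*, *Tnfrsf1a*, *Tnfrsf14*, *Tnfrsf26*, *Tnfrsf4* and *Tnfrsf8*, and the 1 was *Tnfsf15*. The largest of these changes were in *Tnfrsf8*, the receptor CD30, and *Tnfrsf26*, a truncated receptor near the TRAIL decoys, both singled out after their values were seen. On the log2(normalized count + 1) scale they were 1.19 and 1.17, and in edgeR on the recovered reads 1.20 and 1.23, so their order depends on the scale. *Tnfrsf8* had 135, 161 and 228 normalized reads in wild-type and 329, 562 and 325 in L2-fKO ovaries. Its log2 fold change of 1.19 (SE 0.27, 95% confidence interval 0.55 to 1.83) had a limma adjusted p of 0.0883, and DESeq2 on the recovered reads gave 0.00111 (range over the alternatives 0.00111 to 0.301). *Tnfrsf26* had 7.30, 11.7 and 5.51 against 20.6, 25.7 and 12.5 (limma adjusted p = 0.223), and *Tnfsf15* 25.6, 20.9 and 21.1 against 8.94, 10.3 and 15.9 (limma adjusted p = 0.224). The counts of *Tnfrsf26* and *Tnfsf15* were low in every library.

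**Figure D4:**
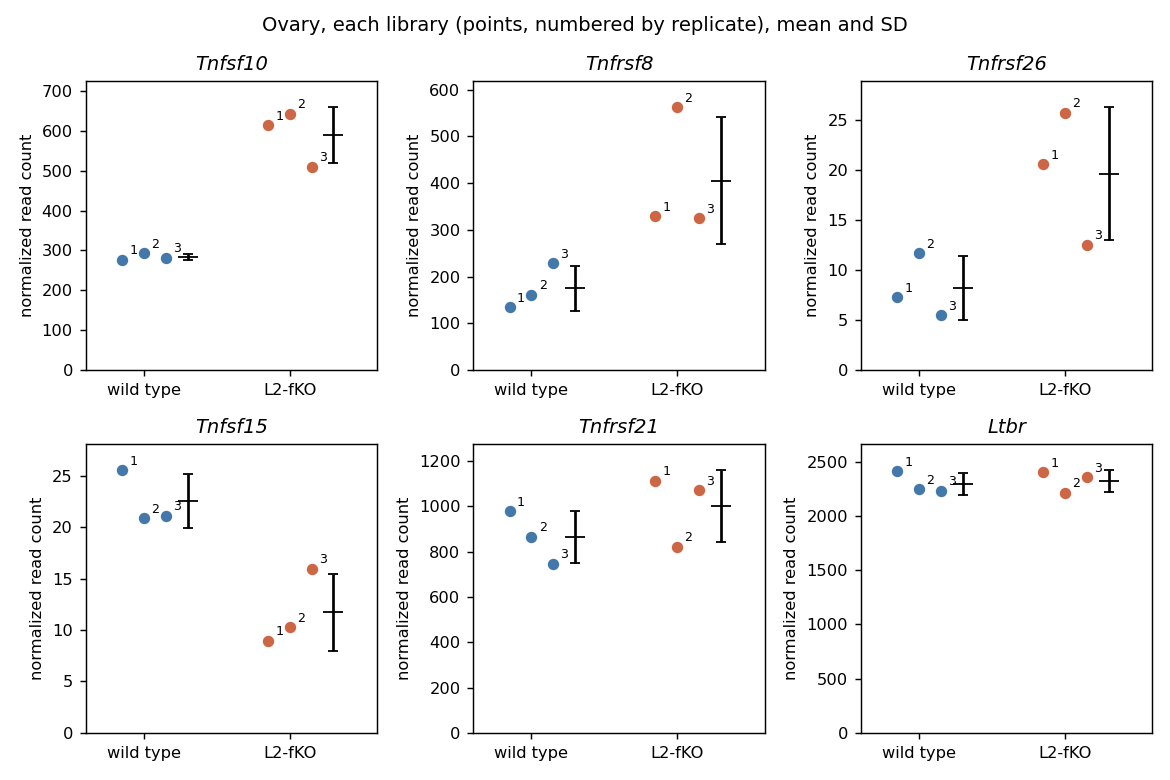
Normalized read counts of 6 members in each ovary library, numbered by replicate, with the mean and SD beside the points (n = 3 per group, axes from 0). *Tnfsf10* lies at 277 to 293 in wild-type and 510.2 to 643 in L2-fKO ovaries, *Tnfrsf8*, *Tnfrsf26* and *Tnfsf15* are also separate, and *Tnfrsf21* and *Ltbr* overlap.

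None of the members with the highest levels in ovary passed the test. *Tnfrsf1a* had 3854, 3728 and 3912 normalized reads in wild-type and 4187, 3975 and 4179 in L2-fKO ovaries (log2 fold change 0.10, 95% confidence interval -0.04 to 0.24). *Ltbr* had 2412, 2244 and 2230.5 in wild-type and 2402, 2211 and 2354 in L2-fKO ovaries (log2 fold change 0.02, 95% confidence interval -0.15 to 0.18). *Tnfrsf21* had 979.5, 867 and 748 in wild-type and 1114, 822 and 1073 in L2-fKO ovaries (log2 fold change 0.21, 95% confidence interval -0.14 to 0.56). Only *Tnfrsf1a* of these 3 separated the groups, by a margin smaller than its spread in L2-fKO ovary. *Tnfrsf19* had 3489, 4856 and 4796 in wild-type and 3405, 6633 and 3183 in L2-fKO ovaries, with L2-fKO ovary 2 far above the others (log2 fold change -0.06). *Tnfsf12* had 411, 404 and 444 in wild-type and 374, 432 and 429 in L2-fKO ovaries, and *Tnfrsf1b* 1055, 884 and 841 against 1173, 794 and 1100.02. Neither separated the groups.

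The other ovary members stayed short of the test, with log2 fold changes from -0.36 for *Tnfsf13b* to 0.89 for *Ltb*, whose counts were 13.8 to 45.6. *Tnfrsf4* was at 0.71, *Tnfrsf12a* at 0.56, *Tnfsf9* at 0.37, *Tnfrsf14* at 0.33, *Cd40* at 0.26, *Tnfrsf25* at -0.28, *Tnfrsf11a* and *Tnfrsf18* at 0.08 and *Tnfsf13os* at 0.10. *Tnfsf13* was at 0.03, *Tnfsf12* at -0.03, *Tnfsfm13* at -0.03, *Tnfsf11* at -0.05 and *Fas* at -0.05. Of the 10 TRAF-binding receptors tested in ovary, 9 had a positive log2 fold change (median 0.19), of the 9 ligands 4 did (median -0.03), and of all genes tested 9119 of 18504 did.

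The last comparison asked whether a member responded differently in the 2 organs, as the difference between the L2-fKO effects in spleen and ovary in 1 edgeR fit of the spleen counts and recovered ovary reads. The fit treated the 14 libraries as independent, although L2-fKO spleen 3 and L2-fKO ovary 1 were from the same animal. Of 29 members tested, 2 differed at an adjusted p below 0.05, *Tnfrsf21* and *Ltbr*, against 5.22% of 18580 genes. For *Tnfrsf21* the spleen effect exceeded that in ovary by 1.18 on the log2 scale (SE 0.25, 95% confidence interval 0.65 to 1.71, edgeR adjusted p = 0.0132). For *Ltbr* it did so by 0.65 (SE 0.16, 95% confidence interval 0.30 to 0.99, edgeR adjusted p = 0.0308). *Ltbr* was the weaker of the pair, with an adjusted p of 0.0508 to 0.0962 without any 1 ovary, 0.0644 without wild-type spleen 4, 0.0599 without L2-fKO spleen 2, and 0.139 with female spleens only (range over all alternatives 0.0142 to 0.139). For *Tnfrsf1a* the difference was 0.45 (95% confidence interval 0.10 to 0.79), which did not pass (adjusted p = 0.128). In the other direction, with the larger effect in ovary, *Tnfrsf8* differed by -1.32 (95% confidence interval -2.28 to -0.37, adjusted p = 0.106), *Tnfrsf26* by -1.61 (-2.79 to -0.44, adjusted p = 0.107) and *Ltb* by -1.62 (-3.14 to -0.10, adjusted p = 0.217), none of which passed. *Tnfsf15*, too low to be tested in spleen alone, differed by 1.43 (0.30 to 2.55, adjusted p = 0.138). For *Tnfsf10* the spleen effect minus that in ovary was -0.99 (95% confidence interval -2.13 to 0.16, adjusted p = 0.324), so its rise in ovary was not shown to be absent from spleen. Without L2-fKO spleen 4 that difference was -1.51 (adjusted p = 0.0429, range over the alternatives 0.0429 to 0.542), and *Tnfrsf26* also passed, at -1.91 (adjusted p = 0.0345, range 0.0345 to 0.256). *Tnfsf14* could not be compared, as the ovary table does not list it.

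**Figure D5:**
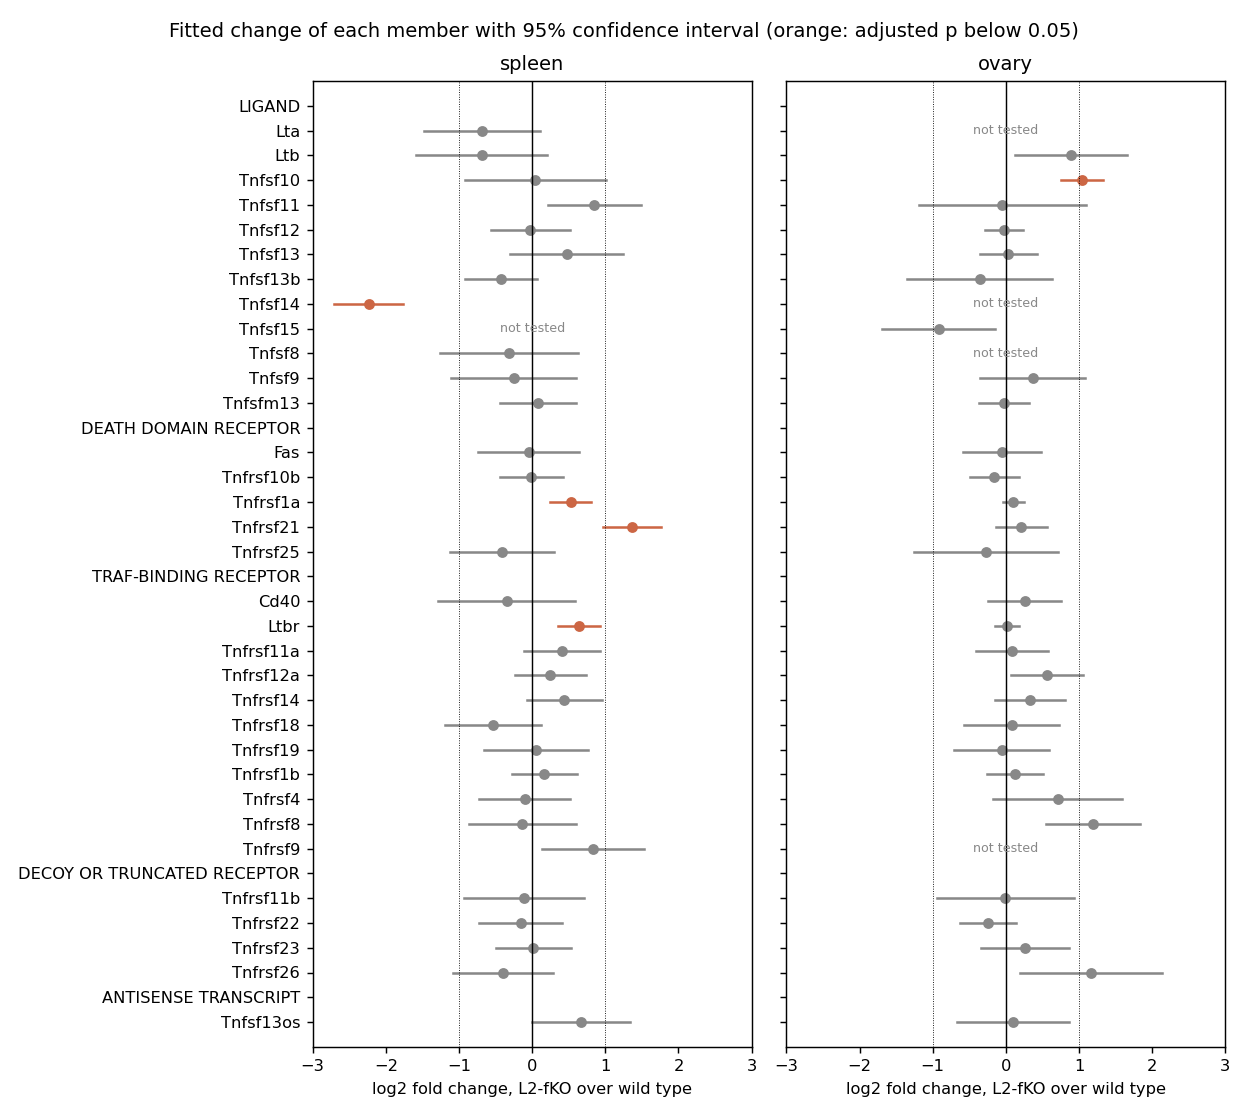
Log2 fold change of each member, L2-fKO over wild type, with its 95% confidence interval, in spleen (edgeR, 32 members tested) and ovary (limma, 29 tested), grouped by role, with dotted lines at a log2 fold change of 1 either way. In spleen *Tnfsf14*, *Tnfrsf21*, *Ltbr* and *Tnfrsf1a* are past the adjusted p, and in ovary *Tnfsf10* is.

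Relatives of the family under other symbols and the signaling proteins below the receptors were counted as 3 lists. At the adjusted p, 6.89% of all genes tested were higher in L2-fKO spleen and 6.51% lower, together 13.4%. In ovary these shares were 1.23% and 0.351% by limma, 1.24% and 0.373% by edgeR and 4.38% and 1.65% by DESeq2. At an unadjusted p below 0.05 limma gave 16.8% of all ovary genes. Of 9 relatives tested in spleen, among them *Tnf*, *Fasl*, *Cd27* and *Relt*, 1 rose: *Ngfr*, the p75 neurotrophin receptor, from 571 ± 71.7 to 2512 ± 255 normalized reads (SD, n = 4 each; log2 fold change 2.14, SE 0.13, edgeR adjusted p = 1.82e-05). *Tnf* itself had 56.7 to 93.4 normalized reads in wild-type and 31.5 to 101 in L2-fKO spleens (log2 fold change -0.14). Of 24 adaptors and death signaling genes, 2 were higher and 1 lower at the adjusted p in spleen, none past the fold limit. *Ripk1*, the kinase recruited to *Tnfrsf1a*, had a log2 fold change of 0.95 (SE 0.17, edgeR adjusted p = 0.00589), *Traf4* one of 0.73 (adjusted p = 0.0230), and *Birc2*, the ubiquitin ligase cIAP1, one of -0.50 (adjusted p = 0.00684). Of 14 NF-κB genes, 2 kinase subunits were higher in spleen, *Chuk* by 0.44 (adjusted p = 0.0208) and *Ikbkg* by 0.55 (adjusted p = 0.0284) on the log2 scale. In ovary limma gave 0 of 6 relatives (0 at an unadjusted p below 0.05) and 0 of 24 adaptors (1 lower at an unadjusted p below 0.05). It gave 1 of 14 NF-κB genes, *Ikbkb*, higher by 0.39 (adjusted p = 0.0366), and 4 higher and 0 lower at an unadjusted p below 0.05. At the adjusted p edgeR gave the same counts and DESeq2 0, 0 and 3. The summed NF-κB genes were 17136 to 17925 normalized reads in wild-type and 19127 to 20013 in L2-fKO ovary, without overlap. The sums of the other lists overlapped there. The median log2 fold changes of the 3 lists were -0.19, 0.04 and -0.15 in spleen and 0.20, -0.01 and 0.19 in ovary.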

How the data were processed

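For spleen the authors used Trimmomatic 0.36 for trimming, STAR 2.5.2b for mapping to GRCm38, and featureCounts (Subread 1.5.2) to count unique exon reads by strand. The deposited spleen values are raw counts for 49315 genes. For ovary the authors deposited normalized counts (signal values, counts divided by a size factor per library) for 18603 genes, inside their comparison table. The fold changes and p-values of their comparison tables were not used. How ovary reads were mapped is not given in the sources used here.

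Spleen counts were fitted with edgeR 4.0.16 (TMM, quasi-likelihood test, R 4.3.3) over genes reaching 10 counts in 4 or more libraries. Ovary values were fitted with limma 3.58.1 (intensity trend) on log2(value + 1), a scale that understates changes of low genes, over genes reaching a value of 10 in 3 or more libraries. Whole reads were recovered from 100.0% of ovary values (within 0.001 of a read) for the difference between tissues and for edgeR and DESeq2 1.42.0; on them edgeR called 136 ovary genes higher and 46 lower past both limits, against 135 and 42 by limma. Normalized spleen counts are counts per TMM-scaled library size times the mean size. In 2 of 10 groups of called members, *Tnfsf14* in wild-type spleen and *Tnfsf10* in wild-type ovary, the SD between libraries was at or below counting error (SD 5.89% and 2.89% of the mean, counting error 6.51% and 5.82%). The fits were tested on simulated counts. A pair of wild-type spleens carry the label number 3, and the male was taken as spleen 4. Over all genes, replicates differed by more than counting error (lowest chi-square per degree of freedom 7.86 in spleen and 11.9 in ovary). Alternatives were other tools, filters, pseudocounts, sex, replicate numbers, single-sex subsets and leaving out each library.

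The members, role groups and lists were chosen with earlier results of these data known. Values in every library are given for members past an adjusted p of 0.05 in either tissue or in their difference, for the 5 with the highest level per kilobase in each wild-type tissue, and for binding partners of called members.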

Additional observations from a re-analysis of the deposited data

Results flagged for a closer look

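The L2-fKO effect differed between spleen and ovary, by the edgeR test of the difference itself, for *Tnfrsf21* (1.18 on the log2 scale) and *Ltbr* (0.65).

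Within a spleen group of 4, Dixon's test set apart 6 of 66 groups of members' libraries, where chance sets apart about 5%. L2-fKO spleen 4 was above its group for *Tnfrsf18* (159 normalized reads), *Tnfrsf25* (123) and *Tnfsf10* (379). Wild-type spleen 1 was above its group for *Tnfrsf19* (199.0 normalized reads). Wild-type spleen 3 was below its group for *Tnfsf12* (141), and L2-fKO spleen 3 was below its group for *Tnfrsf8* (9.78).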

How the results depend on the processing

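Past both limits, the spleen counts of 1 member higher and 1 lower were the same under every alternative fit. With the adjusted p as the only limit the higher count was 3. Under that limit the DESeq2 Wald test gave 5 members higher (9.96% of all genes, 6.89% by edgeR), and leaving out 1 library gave 2 to 3 higher and 1 to 2 lower, the second being *Tnfrsf25* without L2-fKO spleen 4. In ovary 2 members were called higher by DESeq2 on recovered reads (4.38% of all genes, 1.23% by limma), and 0 to 1 with 1 library left out. The number of members that differed between tissues was 1 to 4 with 1 library left out. No called member changed direction under any alternative, and of the members without a call 15 of 28 in spleen and 12 of 28 in ovary changed sign under at least 1. Without wild-type spleen 1 and L2-fKO spleen 4 (chosen after seeing the data), *Tnfsf14*, *Tnfrsf21*, *Ltbr* and *Tnfrsf1a* stayed past the adjusted p, at log2 fold changes of -2.24, 1.57, 0.53 and 0.45. Whether replicate numbers mark the age-matched pairs is not given in the sources used here. In spleen, correlations were -0.29 to 0.18 for same-numbered samples and -0.29 to 0.44 for the others. In ovary they were 0.07 to 0.38 for same-numbered samples and -0.33 to 0.18 for the others. A pairing of the ovaries was not tested, and the main fits used none. With a replicate block, genes past the adjusted p went from 292 to 539 in ovary and from 2267 to 1247 in spleen. With the replicate block the members past both limits were 1 higher and 1 lower in spleen and 1 higher in ovary, and the adjusted p of *Tnfrsf1a* was 0.0626. In the 3′UTR of median length, taken as the shorter of the middle pair where their number was even, 11 members held UAUUUAU, against 14 in the longest. The share of all genes went from 29.7% to 21.3%. The cause of these shifts was not tested. Depth limits *Tnfsf15* in spleen and *Tnfrsf26* in ovary, with 83 and 85 reads over all libraries.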

Other observations

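The ligands *Tnfsf4* (OX40L) and *Tnfsf18* (GITRL) are in the spleen count table and in neither comparison, and so were not members. Their counts over the 8 spleen libraries summed to 69 and 65, with at most 16 and 14 in 1 library. Their receptors *Tnfrsf4* and *Tnfrsf18* had 859 and 1042 reads in the same libraries.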
